A study of Arabidopsis thaliana with 6 samples.

Results

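Every genotype of this study was measured on an array of a first and an array of a second replicate set, and the seedlings of these sets were compared with each other. Replicate set 2 held the 3 arrays whose titles end in rep2 and replicate set 1 the 3 arrays whose titles end in rep1, so that all 6 of the 6 arrays entered, paired by genotype. The genotypes were wild type, nar1-4/- and nbp35-3/- of Arabidopsis thaliana, all in the Col-0 background, with 1 array each in each set; the mutants are written nar1-4 and nbp35-3 from here on. NAR1 and NBP35 are components of the cytosolic machinery that assembles iron-sulphur clusters. Whole seedlings were grown on plates of MS medium at 22 °C with 16 h light and 8 h dark, and were frozen 2 weeks after imbibition. The design text calls the arrays biological replicates, but no label says what a replicate number shares or when in the day plants were frozen. Sowing, harvest, labelling and hybridisation therefore cannot be told apart as sources of a difference between the sets. The sign "/-" is not explained, and for the nbp35 arrays the allele is nbp35-3 in title and genotype but nbp35-4 in the source name. The labelling reaction took 250 ng of RNA, except in 3 samples, given only as codes that match no genotype or set, where it took 200 ng.

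The compared programmes are ones that a seedling adjusts to its surroundings. The circadian clock sets the phase of many transcripts, and cold acts on part of the same genes. Iron shortage switches on a cascade of basic helix-loop-helix (bHLH) transcription factors that raises iron uptake. Glucosinolates are sulphur-rich defence compounds of the cabbage family, made from methionine or tryptophan. Auxin, gibberellin and cytokinin steer growth, and heat-shock chaperones protect proteins when they unfold. When carbon runs short, plants recycle cell content by autophagy and burn the branched-chain amino acids.

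Set 2 differed from set 1 over a wide part of the transcriptome. A probe set was called when limma's test of the mean within-genotype difference gave a Benjamini-Hochberg adjusted p under 0.05. Of 22746 probe sets, 5325 (23.4%) were called, 2787 (12.3%) higher and 2538 (11.2%) lower in set 2. With a mean difference of at least 2-fold as well, 820 were higher (3.61%) and 512 lower (2.25%), and an unadjusted p under 0.05 was reached by 8412 (37%). All 5325 had the same direction in each of the 3 genotypes. Because the call needs a mean difference large beside its spread between genotypes, this agreement comes with the call. It is no separate evidence of recurrence. Among the 13513 probe sets that name 1 gene, 2774 (20.5%) were called, and these shares are the background for each gene list. The median difference over probe sets was -0.01 in wild type, -0.02 in nar1-4 and 0.01 in nbp35-3 on the log2 scale. The number of calls depended on the pairs used: it was 1715 without the nar1-4 pair, 1959 without the wild-type pair and 5816 without the nbp35-3 pair, each with 1 residual degree of freedom. The array medians themselves were 5.70 to 5.72 in set 1 and 5.76 to 5.83 in set 2. When each array was centred on its own median, 2252 probe sets were called higher and 3592 lower, so that the share of higher calls was 38.5% and not 52.3%.

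A difference of at least 2-fold in the same direction in all 3 genotypes was found for 472 probe sets higher (2.08%) and 213 lower (0.936%) in set 2, against 6 (0.0264%) that were 2-fold apart in every genotype but not in 1 direction. At 1.5-fold these counts were 1165 (5.12%) higher and 805 (3.54%) lower. Wild type had 1091 probe sets at least 2-fold higher and 665 at least 2-fold lower. In nar1-4 these counts were 954 and 647, and in nbp35-3 they were 896 and 733. Of the 1097 probe sets that moved 2-fold the same way in wild type and nar1-4, 685 (62.4%) also did so in nbp35-3, and 30 had the opposite sign there. Within a genotype the sets are 1 array each, so these counts carry no test.

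**Figure D1:**
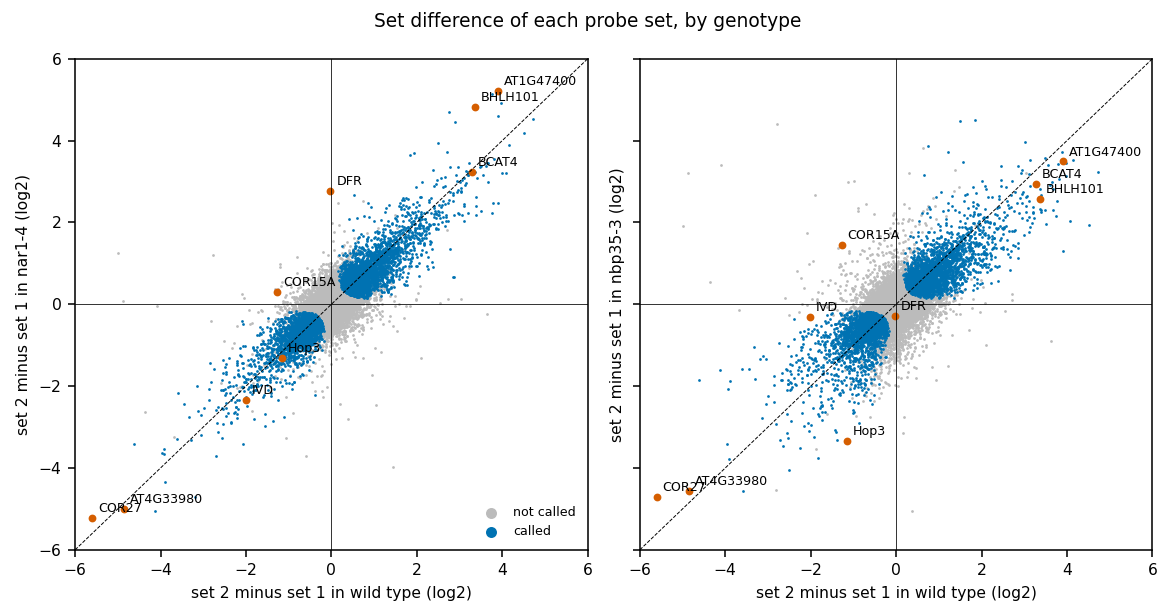
Set 2 minus set 1 on the log2 scale in wild type (horizontal) against nar1-4 (left) and nbp35-3 (right), with 1 point per probe set, blue where called, and with the named genes in orange. Called probe sets lie near the diagonal in both panels, as the call favours even differences. COR27 and AT4G33980 sit at the low end and BHLH101, AT1G47400 and BCAT4 at the high end. IVD, Hop3 and COR15A lie off the diagonal in nbp35-3 and DFR in nar1-4.

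Among probe sets that name 1 gene, the deepest fall was in COR27 (AT5G42900), a gene regulated by cold, light and the clock, whose protein represses clock and cold genes. Its log2 expression was 9.22 in wild type, 9.33 in nar1-4 and 8.86 in nbp35-3 of set 1, and 3.61, 4.12 and 4.16 in the same genotypes of set 2. Every set 2 array lay far below every set 1 array (log2 difference -5.17 ± 0.18 SE, n = 3 pairs, limma adjusted p = 0.000591). The groups did not overlap in that direction for 22.3% of all probe sets. Signal over background was not measured, so where a gene reads low in 1 set, as COR27 does in set 2, its low values are not shown to lie above background and the difference may be understated. AT4G33980, for which the gene table gives no symbol, followed closely: it read 9.30, 9.38 and 9.10 in set 1 and 4.44, 4.39 and 4.54 in set 2, a log2 difference of -4.80 ± 0.12 (SE, n = 3 pairs). GI (AT1G22770), the clock gene GIGANTEA that peaks towards evening, was not called. Its values were 7.53, 7.49 and 7.22 in set 1 and 7.37, 7.09 and 7.34 in set 2, which overlap (log2 difference -0.15 ± 0.13, SE, limma adjusted p = 0.471). COR27 and GI were the 2 of 50 written clock genes that could be measured, and no morning-phased clock gene was among them. By locus alone, 5 clock members were measured, of which 2 were called lower (11.2% of all probe sets) and 3 were not called.

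Most cold-response genes were not called, and of all probe sets 23.4% were called. Of 5 measured members 1, the dehydrin COR47 (AT1G20440), was called, with log2 values of 10.83, 10.65 and 10.84 in set 1 and 10.05, 10.09 and 10.18 in set 2 (difference -0.66 ± 0.10, SE, n = 3 pairs, limma adjusted p = 0.00939). This modest fall was in every genotype, and its call was lost without the wild-type pair (adjusted p = 0.0655) or the nar1-4 pair (adjusted p = 0.0523). COR15A, a chloroplast-protecting cold protein, differed in direction between genotypes and was not called: it read 9.41, 7.22 and 6.33 in set 1 and 8.13, 7.51 and 7.78 in set 2, so that wild type was lower and both mutants higher in set 2. COR15B, the dehydrin LTI30 and the zinc-finger factor STZ were not called, with log2 differences of 0.46, -0.74 and -0.32. The median of the 5 cold members was -0.32, and by genotype it was -0.86 in wild type, 0.07 in nar1-4 and 0.30 in nbp35-3.

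**Figure D2:**
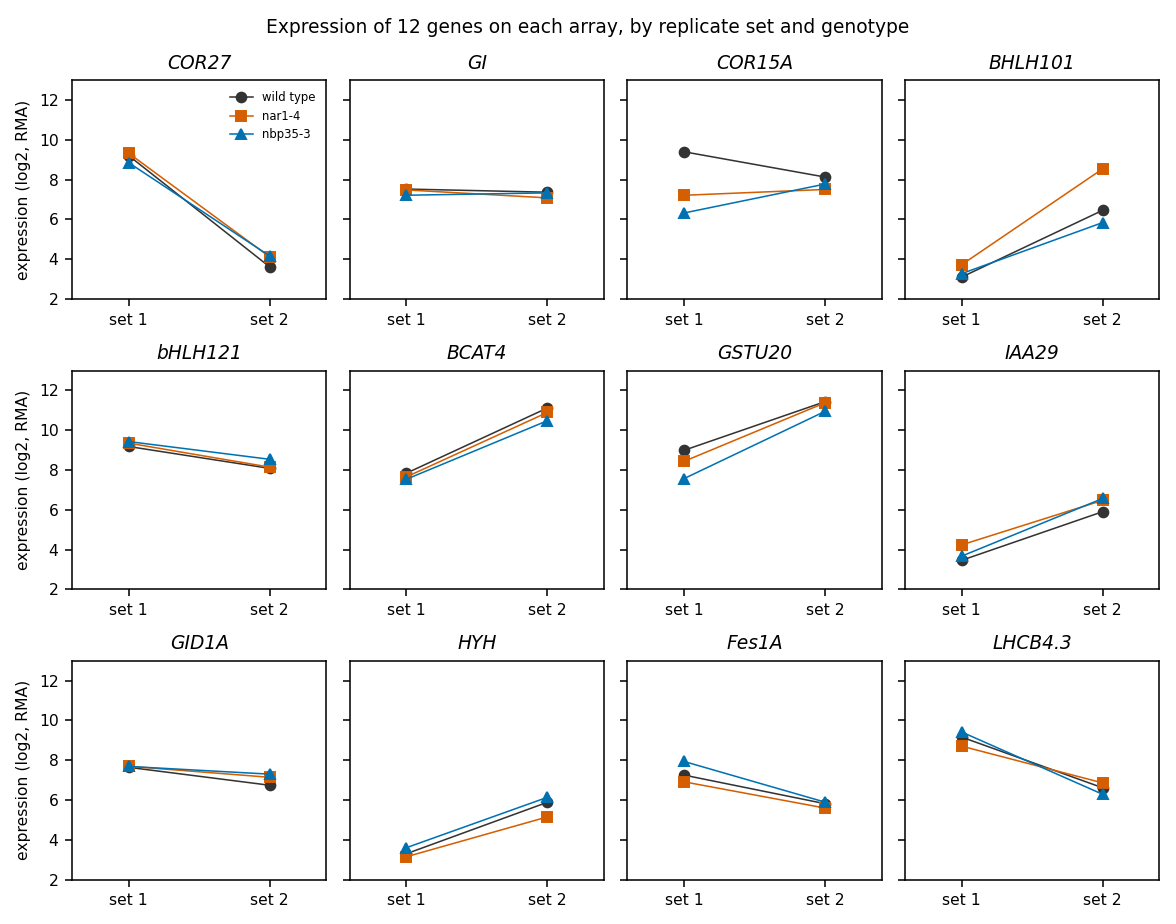
RMA log2 expression of 12 genes on each of the 6 arrays, by replicate set (horizontal) with a line joining the arrays of a genotype. COR27, bHLH121, GID1A, Fes1A and LHCB4.3 were lower and BHLH101, BCAT4, GSTU20, IAA29 and HYH higher in set 2 in all 3 genotypes, GI values overlapped between sets, and COR15A was lower in wild type and higher in both mutants.

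Regulators of the iron deficiency response split between the sets. BHLH101 (AT5G04150), a factor of the bHLH subgroup that is induced when iron is short and that activates uptake genes with the factor FIT, read 3.1, 3.72 and 3.28 in wild type, nar1-4 and nbp35-3 of set 1 and 6.46, 8.55 and 5.85 in set 2. All set 2 arrays were above all set 1 arrays, as for 21.3% of all probe sets, and nar1-4 of set 2 was the highest array. The log2 difference was 3.59 ± 0.40 (SE, n = 3 pairs, limma adjusted p = 0.00443), and 2 of the set 1 arrays were below the first quartile of their array. AT1G47400, for which the table gives no symbol, had the largest rise of all probe sets that name 1 gene: 3.53, 4.31 and 3.3 in set 1 against 7.44, 9.53 and 6.80 in set 2, a log2 difference of 4.21 ± 0.32 (SE, n = 3 pairs, limma adjusted p = 0.00184). Both genes had their largest difference in nar1-4, 4.82 for BHLH101 and 5.22 for AT1G47400, and their smallest in nbp35-3, 2.57 and 3.49.

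Further members of the cascade moved less. PYE, a factor that represses part of the iron response while iron is short, read 5.25, 5.39 and 5.43 in set 1 and 5.67, 6.34 and 5.74 in set 2 (log2 difference 0.56 ± 0.15, SE, limma adjusted p = 0.0483). bHLH34, an activator further up the cascade, was higher by 0.84 ± 0.16 (SE, limma adjusted p = 0.0181). All 3 arrays of set 2 were above those of set 1, as for 21.3% of all probe sets. bHLH121, also an upstream activator, went the other way: 9.18, 9.35 and 9.43 in set 1 against 8.08, 8.14 and 8.54 in set 2, a fall of every genotype (log2 difference -1.07 ± 0.11, SE, limma adjusted p = 0.00345). PYE and bHLH34 lost their calls without the wild-type pair (adjusted p of 0.124 and 0.0884) or the nar1-4 pair (0.165 and 0.0935). In all, 3 of 8 measured members were called higher and 1 lower (12.3% and 11.2% of all probe sets), with a median of 0.30. These calls were all of regulators. The 1 measured gene of uptake and transport was not called, at 0.85 (1.11 in wild type, 1.32 in nar1-4 and 0.12 in nbp35-3). ILR3 and bHLH115, named after their values were seen, differed by -0.13 and 0.03 and were not called. Counting members by locus alone raised the list to 12, of which 5 were higher and 1 was lower. The added calls were AT1G47400 and AT1G74770 (log2 difference 1.28 ± 0.25, SE), and the latter call was lost without the wild-type pair (adjusted p = 0.0793) or the nar1-4 pair (adjusted p = 0.0764). Genes of iron storage such as ferritins were not analysed here.

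Of the 7 measured genes of glucosinolate synthesis and transport, 5 were called higher in set 2 (against 12.3% of all probe sets) and 0 lower, with a median of 1.2; the calls were 4 of 5 synthesis genes and 1 of 2 transporters. BCAT4 (AT3G19710), the aminotransferase that starts the chain elongation of methionine, read 7.84, 7.65 and 7.53 in set 1 and 11.12, 10.89 and 10.48 in set 2. Set 2 stood above set 1 by a near-equal step in each genotype, 8.92-fold on average (log2 3.16 ± 0.11, SE, n = 3 pairs, limma adjusted p = 0.000591). GSTU20 (AT1G78370), a glutathione transferase tied to aliphatic glucosinolates, read 8.99, 8.43 and 7.56 in set 1 and 11.44, 11.38 and 10.95 in set 2, a 7.61-fold higher level (limma adjusted p = 0.00148). AOP1, of the family whose other members modify the side chain, was higher, from 4.44, 4.39 and 4.33 to 6.21, 6.64 and 5.57. UGT74B1, the glucosyltransferase of the core pathway, was higher by 1.2 ± 0.16 on the log2 scale (SE, limma adjusted p = 0.00623). GTR1, a transporter that loads glucosinolates into the phloem, was higher by 1.07 ± 0.14 (SE, limma adjusted p = 0.00701). Without the nar1-4 pair the calls of UGT74B1 (adjusted p = 0.0532) and GTR1 (adjusted p = 0.0523) were lost. The other transporter, GTR2, and AOP3 were not called, with log2 differences of -0.13 and -0.15, and AOP3 was near the lowest values on every array at 2.61 to 3.07. AT1G04770 and AT2G31790, which entered the list by locus alone, were also called higher, by 1.27 and 1.76. The ATP sulphurylases APS3 and APS4, which activate the sulphate that this pathway consumes, differed by 0.50 and -0.10 and were not called.

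**Figure D3:**
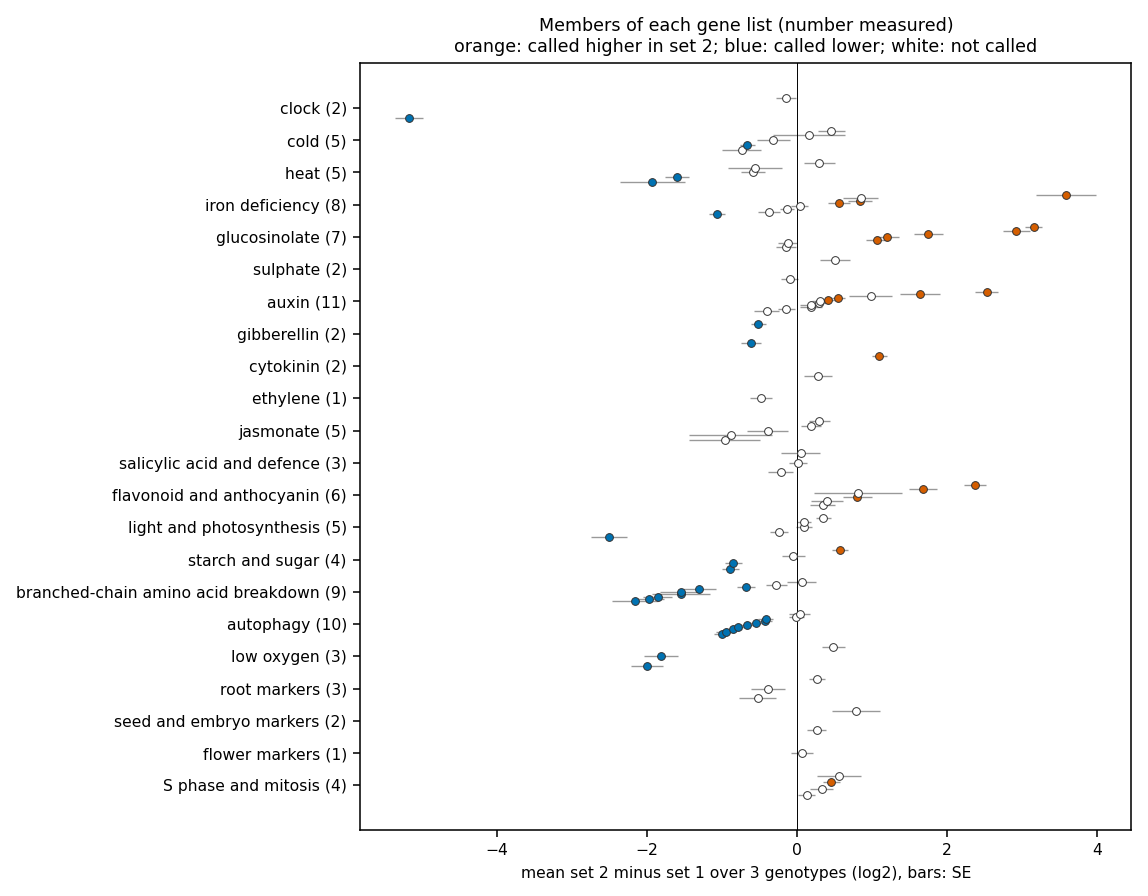
Mean set 2 minus set 1 over the 3 genotypes on the log2 scale (horizontal) for each measured member of 22 gene lists (rows, with the number measured), with bars for the SE and colour for the call. Glucosinolate members called lie at 1.07 to 3.16, auxin members called at 0.41 to 2.53, and the called members of branched-chain amino acid breakdown and autophagy all lie below 0.

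Among hormone genes, 4 of 11 measured auxin members were called higher and 0 lower, against 12.3% and 11.2% of all probe sets. IAA29 (AT4G32280), an auxin-induced repressor of auxin signalling, read 3.46, 4.23 and 3.67 in set 1 and 5.90, 6.47 and 6.57 in set 2, higher in every genotype (log2 difference 2.53 ± 0.15, SE, n = 3 pairs, limma adjusted p = 0.00129). GH3.3, an enzyme that links surplus auxin to amino acids, read 5.19, 5.82 and 4.14 in set 1 and 6.86, 6.72 and 6.49 in set 2 (log2 difference 1.64 ± 0.27, SE, limma adjusted p = 0.0114). LBD16, a lateral root factor, and YUC2, an auxin synthesis enzyme, were higher by 0.41 ± 0.10 and 0.54 ± 0.10 (SE). GH3.3 lost its call without the wild-type pair (adjusted p = 0.0550), YUC2 without the wild-type pair (0.0660) or the nar1-4 pair (0.0953), and LBD16 likewise (0.164 and 0.178). The 7 other measured members of 11 were not called, among them WES1, a further GH3 enzyme, at 0.98 ± 0.29 (SE, limma adjusted p = 0.0622), and the list median was 0.30. IAGLU, a glucosyltransferase acting on auxin, and GH3.9 were chosen after their values were seen, and were higher by 1.39 ± 0.10 and 1.02 ± 0.12 (SE).

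The gibberellin receptors GID1A and GID1B, both measured members of that list, were called lower in set 2 (11.2% of all probe sets). GID1A read 7.64, 7.70 and 7.69 in set 1 and 6.74, 7.14 and 7.30 in set 2 (log2 difference -0.62 ± 0.13, SE, limma adjusted p = 0.0241), and GID1B was lower by a similar step (-0.51 ± 0.10, SE, limma adjusted p = 0.0207). These falls were under 2-fold, and neither call held without the wild-type pair (adjusted p of 0.116 and 0.0712) or the nar1-4 pair (0.105 and 0.114). Of the type-A cytokinin response regulators, which cytokinin induces and which dampen its signal, RR16 was higher (log2 difference 1.1 ± 0.10, SE, limma adjusted p = 0.00257), from 3.78, 3.48 and 3.32 to 4.79, 4.58 and 4.51. ARR15 was not called at 0.28 ± 0.18 (SE). None of the 5 measured jasmonate members, the 3 of salicylic acid and defence or the ethylene factor EIN3 was called by limma at an adjusted p under 0.05; EIN3 was at -0.48 ± 0.15 (SE, limma adjusted p = 0.0717). The lowest jasmonate values were those of the defensins PDF1.2 (-0.88 ± 0.55, SE) and PDF1.2b (-0.96 ± 0.47, SE), whose genotypes did not move together. Abscisic acid and brassinosteroid members were not analysed here.

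Heat genes did not move as a block. Fes1A (AT3G09350), a cofactor of the chaperone Hsp70, read 7.25, 6.92 and 7.94 in set 1 and 5.82, 5.60 and 5.89 in set 2. This was a 3.04-fold lower level (log2 difference -1.60 ± 0.16, SE, limma adjusted p = 0.00347), with no overlap, as for 22.3% of all probe sets. Hop3, which links Hsp70 with Hsp90, read 6.79, 6.37 and 7.70 in set 1 and 5.64, 5.07 and 4.37 in set 2 (log2 difference -1.93 ± 0.43, SE, limma adjusted p = 0.0282). Its fall was -3.33 in nbp35-3, -1.15 in wild type and -1.30 in nar1-4, and without the nar1-4 pair its call was lost (adjusted p = 0.0830). The small heat-shock protein ATHSP22.0, HSA32 and AT5G48570 were not called, at 0.30, -0.58 and -0.56. The list median was -0.58 over these 5 members but 0.14 over the 12 found by locus alone. Of these 12, 1 member was called higher and 2 lower, against 12.3% and 11.2% of all probe sets. That higher call, AT5G51440, had a difference of 0.95 ± 0.21 (SE), and was lost without the wild-type pair (adjusted p = 0.124) or the nar1-4 pair (adjusted p = 0.151). The most uneven of them, AT1G53540, read 6.21, 5.63 and 8.12 in set 1 and 6.59, 2.83 and 3.08 in set 2, so that wild type read nearly alike in both sets and the mutants were low in set 2, and it was not called.

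Genes of light response, pigments and photosynthesis were called in both directions. HYH (AT3G17609), a bZIP factor close to HY5 that promotes light responses and pigments, read 3.3, 3.15 and 3.60 in set 1 and 5.89, 5.15 and 6.14 in set 2, a rise seen in each genotype (log2 difference 2.38 ± 0.15, SE, n = 3 pairs, limma adjusted p = 0.00139). UGT78D1 and UGT78D2, which attach sugars to flavonols, were higher by 1.68 ± 0.19 and 0.81 ± 0.19 (SE). The second of these calls was lost without the wild-type pair (adjusted p = 0.0886) or the nar1-4 pair (adjusted p = 0.102). Of 6 measured flavonoid and anthocyanin members, 3 were called higher and 0 lower (12.3% and 11.2% of all probe sets). The list median was 0.81. The anthocyanin enzyme DFR read 6.36, 3.79 and 5.32 in set 1 and 6.34, 6.55 and 5.03 in set 2, so only nar1-4 was far apart, and DFR was not called. CHIL, a chalcone isomerase-like protein chosen after its values were seen, was higher by 2.47 ± 0.22 (SE, limma adjusted p = 0.00259).

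The antenna protein LHCB4.3 (AT2G40100) of photosystem II read 9.17, 8.71 and 9.42 in set 1 and 6.61, 6.86 and 6.29 in set 2, a 5.70-fold lower level in set 2 (log2 difference -2.51 ± 0.24, SE, limma adjusted p = 0.00296). Its relatives LHCB4.1 and LHCB4.2 differed by 0.10 and 0.35 and were not called, and such close family members can share signal on an array. RCA, the activase of Rubisco, was between 13.37 and 13.55 on all arrays. Of the 4 starch genes measured, the starch-degrading DPE1 and PWD were lower by 0.85 and 0.89 on the log2 scale (differences -0.85 ± 0.11 and -0.89 ± 0.11, SE), but a second probe set for PWD, the dimmer one, was at 0.03 and not called. APL3, a subunit of the enzyme that starts starch synthesis, was higher by 0.57 ± 0.11 (SE), a call lost without the wild-type pair (adjusted p = 0.0596) or the nar1-4 pair (adjusted p = 0.101). QQS, a regulator of starch content, was not called.

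The 3 lists of genes that follow were assembled after the values were seen, so their counts describe and do not test. In the list for the breakdown of branched-chain amino acids, a mitochondrial route that feeds electrons to respiration, 7 of 9 measured members were called lower. This was against 11.2% of all probe sets, with 0 members called higher and a median of -1.55. By locus alone 10 members were measured, of which 7 were called lower and 3 were not called, with a median of -1.43. Among the called members was MGL, a methionine-degrading enzyme that is not part of this route. MCCA (AT1G03090), a subunit of the methylcrotonyl-CoA carboxylase of leucine breakdown, read 11.37, 11.61 and 11.63 in set 1 and 9.03, 8.71 and 10.40 in set 2, a 4.46-fold lower level (limma adjusted p = 0.00805). ALDH6B2, a dehydrogenase of valine breakdown, read 11.54, 11.57 and 11.58 in set 1 and 9.24, 9.30 and 10.21 in set 2 (3.94-fold lower, limma adjusted p = 0.00355). The electron acceptor ETFQO was 3.63-fold lower. IVD, the isovaleryl-CoA dehydrogenase, read 10.18, 10.61 and 10.34 in set 1 and 8.17, 8.27 and 10.03 in set 2, so its difference was -2.01 in wild type, -2.34 in nar1-4 and -0.31 in nbp35-3. All 7 called members had their smallest difference in nbp35-3, where the median over the 9 was -0.72 against -1.59 in wild type and -2.27 in nar1-4, a gap between genotypes that 1 pair each cannot test. Without the wild-type pair IVD, MCCB, ETFBETA and MGL lost their calls (adjusted p of 0.0603 to 0.154), and the same 4 did so without the nar1-4 pair (0.0539 to 0.177). ETFALPHA and D2HGDH were not called.

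The ATG8 genes of autophagy were lower as well, by smaller and more even steps. In the autophagy list 8 of 10 measured members were called lower, against 11.2% of all probe sets. None was called higher, and the median was -0.60. The called members were 8 of the 9 measured ATG8 genes, which encode the small protein that coats the autophagosome membrane. Of the members measured with their name in the gene table, only ATG3 lay outside this family, so the counts describe the family and not the process. By locus alone 11 members were measured, of which 8 were called lower and 3 were not called, with a median of -0.54. Relatives such as the ATG8 genes can share signal on an array. APG8A (AT4G21980) read 8.86, 8.62 and 8.81 in set 1 and 7.79, 7.67 and 7.81 in set 2 (log2 difference -1.01 ± 0.10, SE, limma adjusted p = 0.00296). ATG8E was lower in every genotype too, at -0.95 ± 0.12 (SE), whereas ATG8B and ATG3 were at 0.03 and -0.01. ATG8C, ATG8F and ATG8G lost their calls without the wild-type pair (adjusted p of 0.132, 0.174 and 0.139), these and APG8H without the nar1-4 pair (0.0598 to 0.146), and ATG8C also without the nbp35-3 pair (0.0652). Of the low-oxygen genes, PDC2, the pyruvate decarboxylase of fermentation, read 9.78, 9.40 and 9.28 in set 1 and 7.31, 7.69 and 8.01 in set 2 (3.52-fold lower, limma adjusted p = 0.00573). CML38, a calmodulin-like protein induced by low oxygen, was 4.00-fold lower, and AT3G10040 was not called at 0.48.

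**Figure D4:**
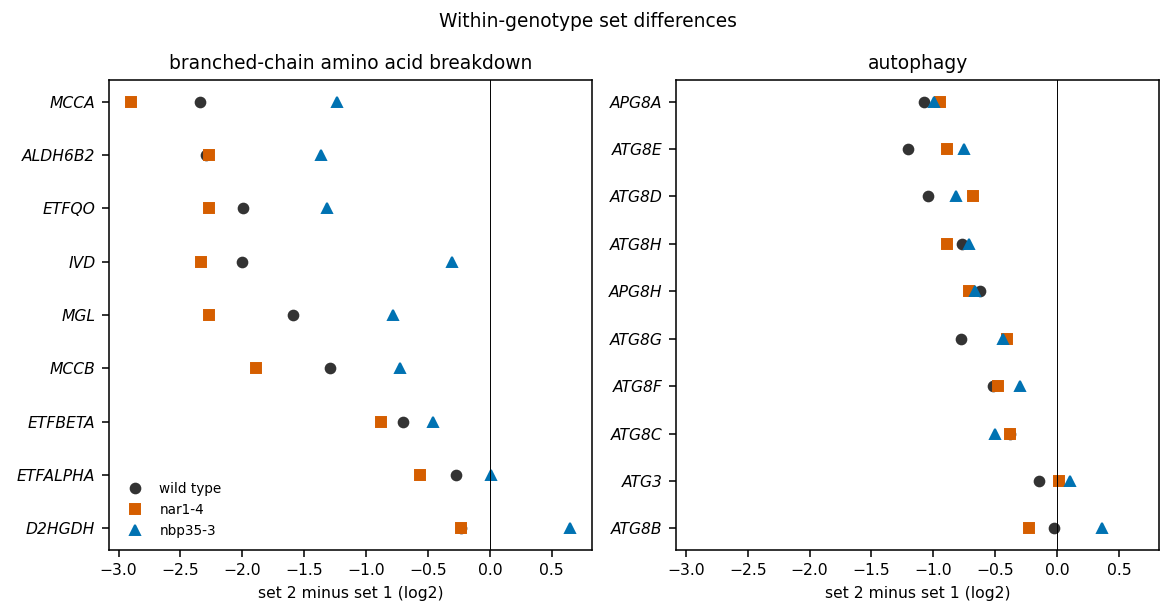
Set 2 minus set 1 on the log2 scale (horizontal) within each genotype for the measured members of 2 lists. These are branched-chain amino acid breakdown (left, where MGL is an enzyme of methionine breakdown) and autophagy (right). In the left panel the nbp35-3 points of the 7 called genes lie nearest to 0, with IVD at -0.31, while in the right panel the 3 genotypes of most genes lie close together.

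Sugar and nitrogen genes that were also called, and that were chosen after their values were seen, lay on both sides. TMT1, a carrier that loads sugars into the vacuole, read 9.80, 9.47 and 9.93 in set 1 and 7.80, 7.64 and 7.93 in set 2, a log2 difference of -1.94 ± 0.10 (SE, n = 3 pairs). AKINBETA1, a subunit of the energy-sensing kinase SnRK1, was lower by 1.66 (difference -1.66 ± 0.14, SE). The asparaginase ASPGB1 was at -1.86 ± 0.31 (SE) and GAT1_2.1, a glutamine amidotransferase-like protein, at -1.91 ± 0.33 (SE). The sucrose exporter SWEET13 was higher, at 3.43, 3.14 and 3.03 in set 1 and 5.62, 5.22 and 5.01 in set 2 (log2 difference 2.08 ± 0.10, SE).

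Families named in the gene table's descriptions were called in part. Of all probe sets 12.3% were called higher and 11.2% lower, and no family was tested against these shares. Expansins loosen the cell wall, and 4 of 18 measured were called higher and 1 lower, with a median of -0.05. EXPA8 (AT2G40610) read 4.87, 5.37 and 5.32 in set 1 and 8.77, 7.85 and 6.62 in set 2. It was 5.90-fold higher on average over the 3 genotypes (limma adjusted p = 0.0148), with the largest step in wild type. EXPA15 and EXPA4 were higher by 1.43 ± 0.21 and 0.80 ± 0.16 (SE). The call of EXPA8 was lost without the nar1-4 pair (adjusted p = 0.0856), and that of EXPA4 without it (0.0596) or the wild-type pair (0.0738). Xyloglucan endotransglucosylases, which cut and rejoin wall polysaccharides, had 2 of 8 called higher and 0 lower. XTH32 read 5.97, 5.70 and 5.48 in set 1 and 7.89, 7.74 and 7.35 in set 2, 3.85-fold higher (limma adjusted p = 0.00107). Its sets did not overlap, as for 21.3% of all probe sets. XTH20, at 0.42 ± 0.10 (SE), lost its call without any 1 of the 3 pairs (adjusted p of 0.0573 to 0.141).

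Enzymes that modify small molecules were called in both directions, as were all probe sets (12.3% higher and 11.2% lower). Of 43 UDP-glycosyltransferases 10 were called higher and 5 lower, with a median of 0.01; UGT76E11 was higher, at 4.07, 4.02 and 3.38 in set 1 and 6.18, 6.23 and 6.21 in set 2, UGT88A1 was higher by 1.46 ± 0.11 (SE) and UGT71C2 was at -1.15 ± 0.11 (SE). Of 12 glutathione transferases 3 were called higher and 1 lower: GSTU20 as above, GSTU16 at 1.27 ± 0.14 (SE) and GSTU18 at 0.95 ± 0.14 (SE), a call lost without the nar1-4 pair (adjusted p = 0.0651). Of 18 cytochrome P450 genes, 3 were called higher and 2 lower, near the shares over all probe sets, with a median of 0.06. CYP71B22 read 7.20, 6.80 and 7.56 in set 1 and 5.03, 4.46 and 5.17 in set 2 (4.92-fold lower, limma adjusted p = 0.000878), while CYP71B26 and CYP71B35 of the same subfamily were higher by 1.30 ± 0.10 and 1.39 ± 0.12 (SE). These relatives can share signal on an array.

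Most probe sets of the plastid genome read lower in set 2. Of 69 plastid probe sets 34 were called lower and 0 higher, 65 had a lower mean, and the median was -0.62 against -0.01 for 13367 nuclear probe sets, of which 1374 were called higher and 1354 lower. By genotype the plastid median was -0.40 in wild type, -0.51 in nar1-4 and -0.98 in nbp35-3. The largest fall was that of ndhE, a subunit of the plastid NADH dehydrogenase-like complex, which read 7.99, 8.34 and 8.18 in set 1 and 5.53, 5.61 and 5.33 in set 2 (6.39-fold lower, limma adjusted p = 0.000878). psaA, a core protein of photosystem I, chosen after its values were seen, was at -2.44 ± 0.14 (SE). The fall was not shared by every plastid gene, since psbK, psbJ, psbL, psbI and ndhC, also chosen after their values were seen, were at -0.10, -0.07, -0.01, 0.21 and 0.00 and were not called. The highest plastid difference was 0.65 (0.94 in wild type, 0.94 in nar1-4 and 0.06 in nbp35-3) and was not called. In whole seedlings, fewer cells of a type, less RNA per cell and a difference in labelling cannot be told apart.

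**Figure D5:**
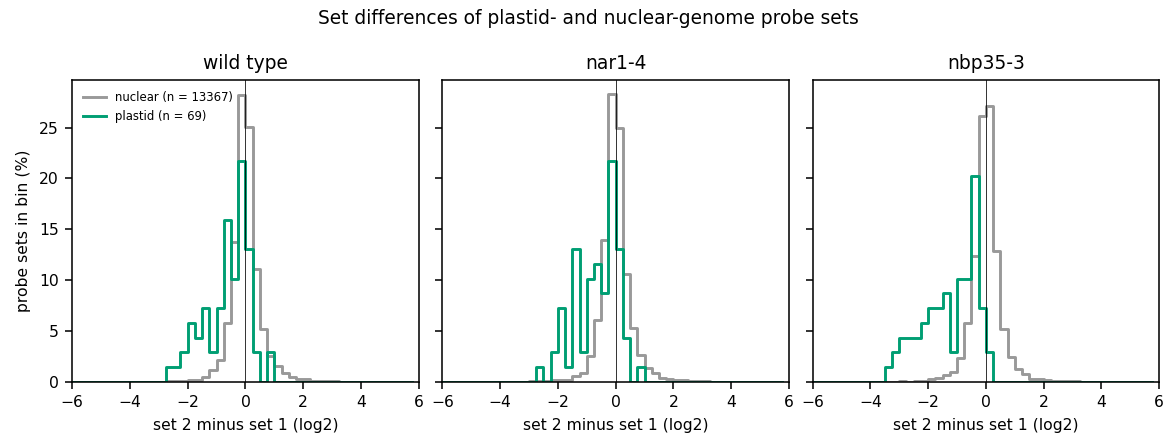
Share of probe sets (vertical, %) in bins of set 2 minus set 1 on the log2 scale (horizontal), for 69 plastid and 13367 nuclear probe sets in each genotype. The plastid distribution reaches further to the left in every genotype, with medians of -0.40, -0.51 and -0.98, while the nuclear one is centred near 0.

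Other genes among the 12 largest in each direction had no symbol in the gene table and are given by locus. Those higher were AT1G13650, AT3G28270, AT1G52000, AT5G48490, AT5G05250, AT3G01060, AT1G60590 and AT1G10640, with log2 differences of 2.94 to 3.55. AT5G48490 read 7.62, 7.98 and 7.81 in set 1 and 11.29, 11.44 and 10.62 in set 2. AT1G13650 and AT3G28270 lost their calls without the nar1-4 pair (adjusted p of 0.0594 and 0.0634). Those lower were AT1G07050, AT5G62360, AT1G19530, AT1G14960, AT3G29410, AT5G18840, AT4G37220, AT4G11210 and AT3G19390, from -3.74 to -2.54. AT1G07050 read 6.88, 6.61 and 6.59 in set 1 and 2.97, 3.09 and 2.81 in set 2, and AT1G19530 read 10.23, 9.84 and 9.91 against 6.30, 6.18 and 7.84. No arrays of the sets overlapped for any of these genes, which their selection by size favours. Of all probe sets, 21.3% had set 2 wholly above and 22.3% wholly below set 1.

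Markers of organs and control probes were read beside these results. Root markers EXPA7, EXPA18 and PYK10, the seed markers M17 and M10 and the flower-linked AGL24 were not called. A further root marker found by locus alone, AT5G17820, was called lower, at 8.54, 8.21 and 9.09 in set 1 and 7.81, 7.57 and 7.27 in set 2 (log2 difference -1.07 ± 0.24, SE, limma adjusted p = 0.0305), a call lost without the wild-type pair (adjusted p = 0.0678) or the nar1-4 pair (adjusted p = 0.0762). The mean log2 level of EXPA7, EXPA18 and PYK10 was 7.59 to 8.10 in set 1 and 7.38 to 7.70 in set 2, that of the 2 seed markers 2.32 to 2.48 and 2.54 to 3.49, and that of AGL24 4.57 to 4.98 and 4.29 to 5.36. The 5 light and photosynthesis genes had a mean level of 11.74 to 11.81 in set 1 and 11.27 to 11.48 in set 2, and PYK10 was at 11.70 to 12.17, so green tissue and root were both present in each set, as the label whole seedling has it. Of 4 genes for S phase and mitosis the kinase AUR2 was called higher (0.46 ± 0.11, SE, limma adjusted p = 0.0340), a call lost without any 1 of the 3 pairs (adjusted p of 0.0540 to 0.181). The 18 probe sets of the spikes added at hybridisation had a mean of 9.19 in set 1 and 10.65 in set 2. The 27 poly-A spike probe sets were at 4.51 and 4.52. Their array means of 4.36 to 4.69 were below every array median (5.70 to 5.83), so they cannot show whether labelling was alike. The end minus start signal of actin was 3.63 in both sets, and that of GAPDH was 1.48 in set 1 and 1.42 in set 2. The part of the organ markers and of the hybridisation spikes in the differences above was not tested.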

How the data were processed

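The authors' deposited table gives log2 values for 22810 probe sets and 6 arrays, made with RMA, per the submitters' processing notes (version not given in the sources used). RMA subtracts background, equalises the distributions of the arrays by quantiles and combines the probes of a probe set, which removes differences in total RNA. The table was used unchanged; how far a signal lies over background was not measured, and precision is limited by the 6 arrays. After 64 control probe sets were set aside, 22746 were tested with limma 3.58.1 in R 4.3.3 (lmFit, eBayes, two-sided) with terms for genotype and set, which left 2 residual degrees of freedom. P-values were Benjamini-Hochberg adjusted over all 22746, with calls under 0.05. The difference is the mean of the 3 within-genotype differences and SE its moderated standard error; p-values measure only the spread between these samples. The code was tested on simulated data.

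A table of the platform annotation named 1 gene for 13513 probe sets, several for 503 and none for 8730. Of the probe sets naming 1 gene, 13436 matched a locus in the RefSeq table of assembly TAIR10.1, for 13286 distinct loci. No coordinates are given, because the files name no build. The probe set with the highest mean stood for a gene. Members were written by name and locus in 28 lists, and of 707 written, 101 were measured with the name in the table; 22 more, by locus alone, were added as an alternative chosen after seeing the data.

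The comparison, the lists and their members were chosen with earlier results of these data known, and 3 lists (branched-chain amino acid breakdown, autophagy and low oxygen) after seeing the values. Named genes are, where a probe set names 1 gene, the 12 largest called differences each way, COR27 and BHLH101, and per list the 6 members with the smallest p; per gene family at most 3. Other genes are said to be chosen after their values were seen, as are all genes named in the 3 added lists and those given as not called beside their list. Alternatives left out each genotype pair, the pairing, dim probe sets or plastid probe sets, or changed the prior, scaling, threshold or fold.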

Additional observations from a re-analysis of the deposited data

Results flagged for a closer look

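Among the genes followed by name or locus, 6 had opposite set differences at least 2 log2 units apart between genotypes. This is not a count over all probe sets, of which others met the same rule. Each genotype is 1 pair of arrays, so the difference between genotypes was not tested. COR15A was at 1.46 in nbp35-3 and -1.27 in wild type. PDF1.2 was at 0.94 in wild type and -1.86 in nbp35-3, and PDF1.2b at 0.21 in wild type and -2.44 in nar1-4. AT5G48570 was at 0.46 in wild type and -1.56 in nbp35-3, and AT1G53540 at 0.38 in wild type and -5.04 in nbp35-3. DFR was at 2.77 in nar1-4 and -0.29 in nbp35-3.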

How the results depend on the processing

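Leaving out 1 genotype pair gave 1715 to 5816 called probe sets, 1074 to 3077 higher and 641 to 2739 lower. An adjusted p under 0.01 left 1896 calls (1148 higher, 748 lower), a mean difference of at least 2-fold left 1332 (820 and 512), and testing only probe sets naming 1 gene gave 2778 (1382 and 1396). At least 1.5-fold in all 3 genotypes held for 1165 probe sets higher and 805 lower. The other settings, with 4782 to 5844 calls, kept the count within 1.5 times, though centring turned the split to 2252 higher and 3592 lower (38.5% higher). Of 103 called genes followed, 33 lost the call without the nar1-4 pair, 24 without wild type, 3 without nbp35-3 and 0 to 6 elsewhere, and 0 reversed; the filter on the array median tested only 85 of them.

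Signs reversed for genes that were not called. Centring turned bHLH115 to -0.056, SAG101 to -0.078, GRX480 to -0.043, AGL24 to -0.025, D2HGDH to -0.030, ATG8B to -0.057, AT2G26800 to -0.0023 and AT3G61960 to -0.015. Quantile normalization again turned SAG101 to -0.090, GRX480 to -0.028, AGL24 to -0.017, ATG3 to 0.036 and AT4G21870 to 0.027. Leaving out 1 pair gave ranges across 0: AGL24 -0.089 to 0.24, AOP3 -0.29 to 0.0035, APS4 -0.15 to 0.0073, AT4G21870 -0.31 to 0.18, ATG3 -0.065 to 0.060, ATG8B -0.13 to 0.17, ATHSP22.0 -0.0023 to 0.53, COR15A -0.49 to 0.87, D2HGDH -0.23 to 0.21, DFR -0.16 to 1.37, GRX480 -0.30 to 0.39, QQS -0.18 to 0.15, SAG101 -0.083 to 0.11 and bHLH115 -0.035 to 0.13. The cause was not tested.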

Other observations

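Several called genes outside the lists were picked after their values were seen, and they are given as values. The histone H2B genes HTB1 and HTB2 were higher in set 2, by 1.21 ± 0.11 and 1.24 ± 0.10 on the log2 scale (SE, n = 3 pairs), and HTB1 read 7.08, 7.21 and 6.84 in set 1 against 8.34, 8.25 and 8.16 in set 2. VTC4, a phosphatase of ascorbate synthesis, was higher by 1.94 ± 0.12 (SE), and CaS, a calcium-binding thylakoid protein, by 1.405 ± 0.10 (SE). The thionin THI2.2 read 5.58, 6.81 and 6.39 in set 1 and 9.34, 9.03 and 8.93 in set 2, so that its spread between genotypes was wider in set 1. MSRB6, a methionine sulphoxide reductase, was higher by 2.84 ± 0.35 (SE), with nar1-4 of set 2 the highest array at 10.46. The receptor kinase FER was at -1.004 ± 0.17 (SE), a call lost without the wild-type pair (limma adjusted p = 0.0663) or the nar1-4 pair (limma adjusted p = 0.0731).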
